A study of Sus scrofa with 8 samples.

Results

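The carbonic anhydrase genes were read from the gene annotation to which the scRNA-seq reads of pig submucosal glands (SMGs) had been assigned. The genes looked for were CA1, CA2, CA3, CA4, CA6, CA8, CA9, CA12, CA13 and CA14, chosen by name. Of these 10 genes, 7 were found by gene name among the 30390 genes of the annotation. CA1, CA2 and CA13 had no gene of that name, but 3 genes with placeholder names carried the product text carbonic anhydrase 1 (LOC100153915), carbonic anhydrase 2 (LOC100154873) and carbonic anhydrase 13 (LOC100152714), and are called CA1, CA2 and CA13 here. Placeholder names were held by 20.0% of the 20674 protein-coding genes with a coding model. The tissue was SMGs dissected from the trachea of newborn pigs, of which 4 were WT (wild-type) and 4 had the CFTR-/- genotype (CF), with 1 library per animal. Cells of CFTR-/- pigs lack the anion channel that is defective in cystic fibrosis. A single annotation served all 8 libraries, so the values below are positions and lengths on the genome build Sscrofa11.1, with no value per animal, no replicate error and no difference by genotype. Cell types and transcript levels were not analysed here.

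Carbonic anhydrases catalyze the reversible hydration of CO2 to HCO3- and H+, with a zinc ion held in the active site by histidine side chains. The mammalian family is larger than the 10 genes looked for. Of these 10, CA1, CA2, CA3 and CA13 encode cytosolic enzymes. CA4 is held in the plasma membrane by a lipid anchor, and CA9, CA12 and CA14 by a transmembrane segment, with the active site outside the cell. CA6 is a secreted enzyme of saliva and other gland fluids, and CA8 is a related protein without CO2 hydration activity. In gland epithelia these enzymes supply and buffer the HCO3- that leaves through anion channels and transporters, and HCO3- helps secreted mucins to unfold. In 3' scRNA-seq a read is counted for a gene when it falls in exons of that gene alone on the matching strand, so the 3' end of each gene model bears on what can be counted.

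The zinc site is where the catalytic genes and CA8 parted. The bases below were cut from the Sscrofa11.1 genome at the coding segments of each gene, 9 codons within a coding exon per gene, and each is read 5' to 3' on the strand of the gene. They are shown because they hold the codons that align with the first and the second zinc-binding histidine of CA2, which are in capitals.
CA1 (chr4:51345783-51345809, plus strand): cttcaattcCATtttCACtggggcaag
CA2 (chr4:51201906-51201932, minus strand): attcagtttCACtttCACtggggttca
CA3 (chr4:51234369-51234395, minus strand): cgccagtttCATcttCACtggggctcc
CA13 (chr4:51432670-51432696, minus strand): cgacagtttCACcttCACtgggggtct
CA4 (chr12:37965209-37965235, minus strand): aagcagctgCACctgCACtggtccaat
CA9 (chr1:236396285-236396311, plus strand): ctgcagttgCATctgCACtgggggtct
CA12 (chr1:108689018-108689044, plus strand): tcacagctgCACcttCACtggggggac
CA14 (chr4:98823801-98823827, minus strand): gcccagctcCACctgCACtggggtcag
CA6 (chr6:69455640-69455666, plus strand): aagcagatgCACttcCACtggggcggc
CA8 (chr4:73060210-73060236, plus strand): tacgaagttAGAtttCATtggggaaga

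All 3 ligand codons encoded histidine in 9 of the 10 genes, whichever of 2 alignment methods was used. CA8 was the exception. Its codon 117, which aligns with the first histidine, was aga and encodes arginine, while codons 119 and 142 encoded histidine. In CA2 the 3 histidines were at codons 94, 96 and 119. In CA9, which carries a long extension before the enzyme domain, they were at codons 242, 244 and 267. The third ligand lay close to an exon junction in every gene. The following 9 codons of CA2, CA9 and CA8 are spliced across that junction, with the third ligand codon in capitals.
CA2 (both pieces within chr4:51201360-51201860, minus strand): gctgcagagctaCACttggttcattgg
CA9 (both pieces within chr1:236396357-236396464, plus strand): cctgctgagatcCATgtggttcacctc
CA8 (both pieces within chr4:73060282-73102569, plus strand): cccatggagctcCACctgatccactgg

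In all 10 genes an intron that falls between codons stood 1 codon before the third ligand codon. That intron was 81 bp long in CA9, 97 bp in CA4, 224 bp in CA14 and 474 bp in CA2. It measured 3815 bp in CA12, 8662 bp in CA13 and 42261 bp in CA8. The junction was thus at the same place in genes whose introns there differed widely in length.

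The 4 cytosolic members lay together and had nearly the same coding structure. CA2, CA3, CA1 and CA13 followed each other on chromosome 4 from position 51194686 to 51468971, a stretch of 274286 bp. CA2, the most widely distributed and a very fast enzyme (51194686 to 51211436), and CA3, an enzyme of low activity known from muscle and fat (51227485 to 51237861), were on the minus strand, 16048 bp apart. CA1, known from red blood cells (51343548 to 51353127), was on the plus strand, 105686 bp beyond CA3. CA13 (51406755 to 51468971, minus strand) began 53627 bp after the end of CA1. The stretch held 2 other annotated genes, the microRNA MIR9858 and the pseudogene LOC100154871, and no other protein-coding gene. When genes less than 100000 bp apart were joined, instead of less than 500000 bp, the same 4 genes formed 2 pairs, CA2 with CA3 and CA1 with CA13.

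**Figure D1:**
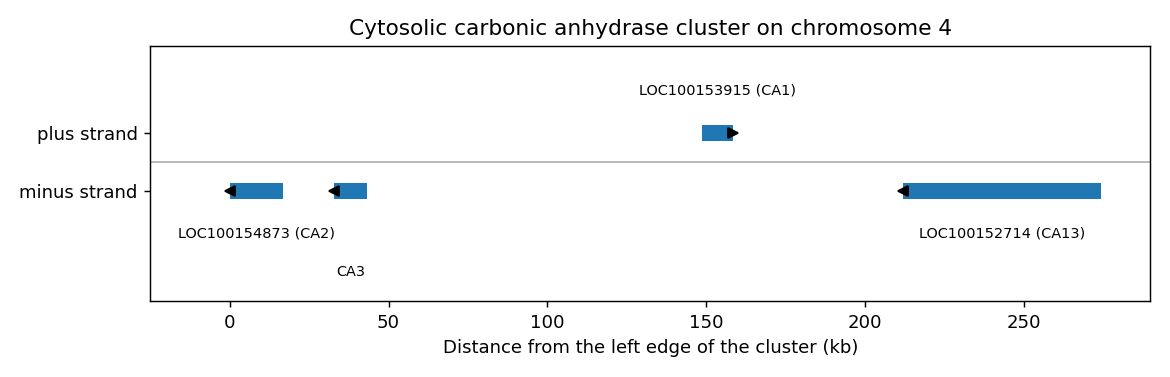
Map of the cytosolic carbonic anhydrase genes on chromosome 4, with distance from the left edge of the cluster in kb on the horizontal axis and strand on the vertical axis. Bars are whole gene spans and arrowheads mark the 3' ends; CA1 alone lies on the plus strand, and CA13 has the longest span, 62217 bp.

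The other 6 genes stood apart from the cluster and from each other. CA8 (73047867 to 73172215, plus strand) and CA14 (98821577 to 98828934, minus strand) were also on chromosome 4, with 86 protein-coding genes between CA13 and CA8 and 437 between CA8 and CA14. CA12 (108649277 to 108710658) and CA9 (236393727 to 236400994) were on the plus strand of chromosome 1, 127683068 bp apart. CA6 was on chromosome 6 (69447662 to 69468819, plus strand) and CA4 on chromosome 12 (37962951 to 37972443, minus strand). The family members thus occupied 4 chromosomes, and membrane-bound genes were on 3 of these without forming a cluster.

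Each cytosolic gene had 7 exons, all of them coding. A longest coding sequence of 7 coding exons was found in 5.50% of all protein-coding genes. Coding lengths, without the stop codon, were 780 bp in CA2 and in CA3, 783 bp in CA1 and 786 bp in CA13. The 4 lengths thus differed by no more than 2 codons. Gene spans were less alike, from 9580 bp in CA1 to 62217 bp in CA13. Coding introns summed to 8343 bp in CA1 and to 38654 bp in CA13, and 1 CA13 transcript started farther upstream than the rest, at 51468971.

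The membrane-bound genes had longer and more varied coding sequences, although CA9 and CA14 had the shortest spans of the 10 genes, 7268 bp and 7358 bp. CA4, a lipid-anchored enzyme of capillary and epithelial surfaces, had 8 exons and 933 coding bp. CA12, a transmembrane enzyme of secretory epithelia, had 11 exons and 1065 coding bp. CA14, a transmembrane enzyme known from kidney and brain, had 11 exons and 1089 coding bp. CA9, a transmembrane enzyme induced by low oxygen, had 12 exons and 1431 coding bp, the most of the 10 genes. The secreted CA6 had 8 exons and 951 coding bp, within the membrane-bound range on both measures. The inactive CA8 had 8 coding exons, as CA4 and CA6 did, and 873 coding bp, between the cytosolic and the membrane-bound lengths. Another exon followed its stop codon. Median coding length was 781.5 bp over the 4 cytosolic genes, 1077 bp over the 4 membrane-bound genes and 1218 bp over all protein-coding genes.

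3' UTRs did not follow the forms in the same way. Among cytosolic genes they were 332 bp in CA1, 680 bp in CA2, 847 bp in CA3 and 2854 bp in CA13. Among membrane-bound genes they were 156 bp in CA4, 209 bp in CA9, 469 bp in CA14 and 3039 bp in CA12. The CA14 value came from the transcript for its shortest protein, and its other coding transcripts had 396 bp. The secreted CA6 had 346 bp and the inactive CA8 694 bp. The cytosolic and membrane-bound ranges overlapped, and each form held 1 gene far longer than its other 3. The median was 763.5 bp for cytosolic, 339 bp for membrane-bound, 574.5 bp for all 10 and 725 bp for all protein-coding genes. CA12 stood at percentile 86.8 of all protein-coding genes and CA13 at percentile 85.5, whereas CA4 stood at percentile 20.4 and CA9 at percentile 24.5. No member had a 3' UTR under 100 bp, which 15.6% of protein-coding genes had (8.33% of those without a placeholder name). Under 200 bp there was 1 member, CA4, against 24.0% of protein-coding genes. In 4 of the 5 CA9 transcripts, which all end at the same position, the 3' UTR was 172 bp. With the transcript of the longest coding sequence CA9 was therefore also under 200 bp, which made 2 members against 24.9% of protein-coding genes.

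5' UTRs ranged from 20 bp in CA6 to 1016 bp in CA14. In the cytosolic genes they were 66 bp in CA3, 119 bp in CA1, 203 bp in CA13 and 252 bp in CA2. In the membrane-bound genes they were 58 bp in CA4, 136 bp in CA12 and 599 bp in CA9. CA14 stood at percentile 90.8 of all protein-coding genes and CA9 at percentile 83.3. The 3 shortest, of CA6, CA4 and CA3, belonged to the 3 genes annotated by a curated RefSeq transcript alone, and all 3 genes had 1 transcript.

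**Figure D2:**
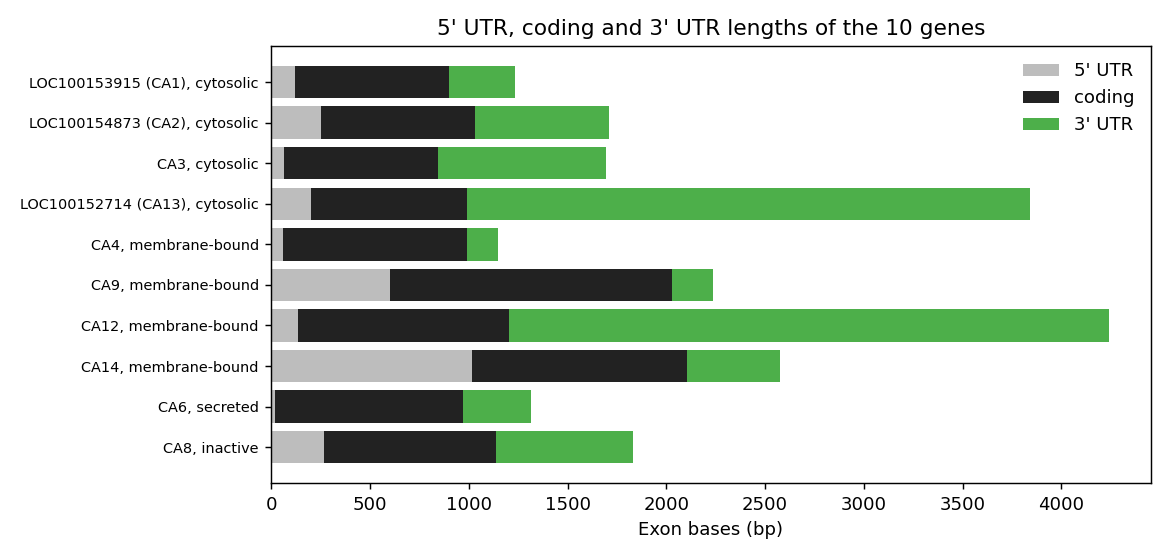
Lengths in bp of the 5' UTR, the coding sequence and the 3' UTR of the 10 carbonic anhydrase genes, grouped by form. Each part comes from the coding transcript that reaches farthest 5', has the longest coding sequence or reaches farthest 3', so a bar can join parts of different transcripts; CA12 and CA13 stand out by 3' UTRs of 3039 bp and 2854 bp, CA14 by a 5' UTR of 1016 bp.

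The 3' ends of 9 of the 10 genes had a poly(A) signal (AATAAA or ATTAAA on the strand of the gene) in their last 50 bp. Over all protein-coding genes the share was 60.9%, and over those without a placeholder name it was 69.9%. AATAAA ended 8 of them and ATTAAA ended CA14. The signal began 17 bp before the end in CA3, 19 bp before it in CA2 and in CA14, and 41 bp before it in CA9. The exception was again CA8. The CA8 transcript that reached farthest 3' ended at 73172215 with neither hexamer in that window, and its 3' UTR was split into 34 bp next to the stop codon and 660 bp in an exon at the far end of 51721 bp of genome. The other 2 CA8 transcripts ended 31605 bp earlier, at 73140610, with AATAAA 20 bp before the end. Their 3' UTR of 1235 bp was also split, over 20116 bp of genome. A search for a hexamer describes the letters of that window only.

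CA8 and CA14 had an intron within the 3' UTR, which 6.32% of protein-coding genes had. In CA14 it was in the transcript for the shortest protein, where 9 bp after the stop codon preceded a last exon of 460 bp. The span of CA8, 124349 bp, was the longest of the 10 and stood at percentile 89.0 of all protein-coding genes, although its coding length stood at percentile 26.1.

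Of the members with several transcripts, CA9, CA12 and CA14 had 1 annotated 3' end each, while CA8 and CA13 had 2. No share over all protein-coding genes is given for this. The 5 transcripts of CA9 ended at 1 position, as did the 2 of CA12 and the 7 of CA14. CA13 had 4 transcripts, of which the 3 coding ones ended together and a noncoding one ended 2839 bp earlier. A single coding transcript was annotated for 5 of the 10 genes, CA1, CA2, CA3, CA4 and CA6, and for 51.1% of protein-coding genes.

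No member shared exon bases with another gene of its strand, which 3.36% of protein-coding genes did. Nor did the span of any member overlap that of such a gene, as it did in 7.29% of protein-coding genes. On the opposite strand 2 members shared exon bases, against 17.1% of protein-coding genes. CA4 shared 44 bases at its 3' end with the lncRNA LOC110256037, and CA12 shared 11 bases at its 5' end with the lncRNA LOC110260967. CA12 also lay wholly inside the span of APH1B, a gamma-secretase subunit gene of the opposite strand. No exon bases were shared with it, and in 4 of 7 APH1B transcripts CA12 fell within 1 intron. The paralog APH1A was the next gene after CA14, 321 bp past its 3' end on the opposite strand. CA13 began 13 bp from C4H8orf59, which runs the other way. Beyond CA9 the nearest gene was TPM2, the beta-tropomyosin gene, at 1254 bp on the opposite strand. Past the 3' end of CA2 the next gene was 445312 bp away, the farthest of the 10. It was ATP6V0D2, a proton pump subunit gene of its own strand. Behind CA6 the nearest gene was SLC2A7, a sugar transporter gene, at 14916 bp, and before it ENO1, encoding the glycolytic enzyme enolase, at 45997 bp. CA8 was isolated, with RAB2A, a membrane traffic gene, 165683 bp before it and the lncRNA LOC110260287 125688 bp after it. CA4 had LOC110256036 4237 bp after it on its own strand, the closest same-strand gene past the 3' end of any member.

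All 26 transcripts of the 10 genes had the same exons as in the RefSeq annotation of this build, so none of the authors' edits of 3' ends touched a member. The paper reports edits for only a small share of the genes it checked, so unchanged models are no trait of this family. As for sequence, the transcripts with the longest coding sequence were compared, and none of the 45 pairs of members shared a stretch of 31 bases. This held for the neighboring cytosolic genes too. Other transcripts of the members were not compared, nor were pairs of other genes, so this result has no share to be set against.

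Coding introns placed the 10 genes in groups that only partly matched the forms of the proteins. The 76 coding introns fell at 21 positions of the protein alignment, each position being an alignment column with a phase (phase 0 between codons, phase 1 after the first base of a codon, phase 2 after its second). All 10 genes shared 3 positions of phase 0, before codons 118, 149 and 222 of CA2. The 6 introns of CA2 recurred at the same position and phase in CA1, CA3 and CA13, with lengths from 474 bp in CA2 to 11537 bp in CA13. CA8 had 5 of these exactly and the other within 3 residues, plus 1 intron of its own. At codons 78 and 170 of CA2, an intron of that position and phase was found in the 4 cytosolic genes and CA8 and in none of the other 5 genes. In turn CA4, CA6, CA9, CA12 and CA14 shared 2 positions that the 4 cytosolic genes and CA8 lacked. At 1 of these, in alignment column 368, the cytosolic genes and CA8 had an intron of phase 0 and the other 5 genes an intron of phase 1, so the introns lay in the same column but 1 base apart.

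Toward the C terminus, CA9, CA12 and CA14, the transmembrane genes, shared 2 more positions, of phase 1 and of phase 2, and no other member had an intron there. All 3 introns of phase 2 in the family were at the second of these. Of the 21 positions, 8 were found in a single gene, 2 of them in CA9 upstream of the zinc site. Introns upstream of that site often lay a few columns apart, at columns 190, 191, 194 and 195 in 9 of the genes, and these counted as different positions. Counted against CA2, 39 of 54 possible matches in the other 9 genes were exact, and 42 were within 3 residues.

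**Figure D3:**
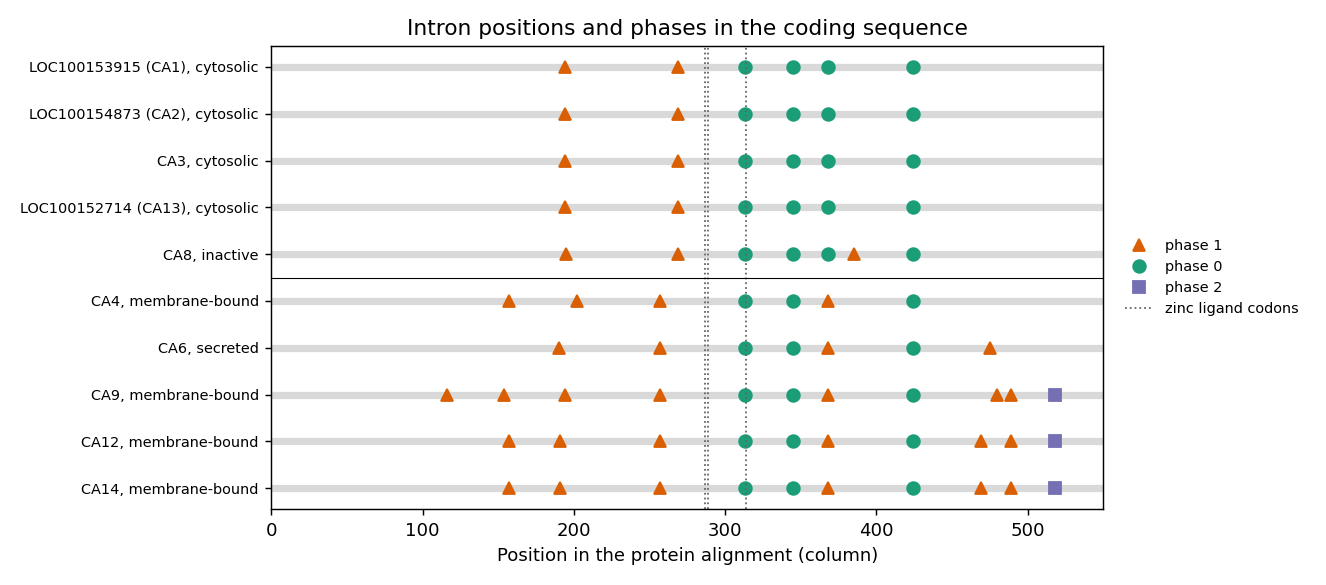
Positions of the 76 coding introns along the protein alignment (horizontal axis, alignment column) in each of the 10 genes, with the marker giving the phase and dotted lines the zinc ligand codons. The 3 shared phase 0 positions line up through all genes, and the black line separates CA1, CA2, CA3, CA13 and CA8 from the 5 genes that have phase 1 in place of phase 0 at column 368.

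The proteins translated from the coding segments grouped in a related way. Identity between cytosolic proteins was 55.0% (CA2 with CA3) to 61.9% (CA2 with CA13), with a median of 58.2% over 6 pairs. Identity between membrane-bound proteins was 32.7% to 43.3%, with a median of 34.8% over 6 pairs, beside 35.4% over the 33 pairs of different forms (39.6% and 37.7% in pairwise alignments). The cytosolic pairs were thus all above every other pair, while the membrane-bound pairs overlapped with pairs of different forms. CA9 and CA14 were the closest membrane-bound pair at 43.3%, and CA12 was closest to CA14 at 42.0%. The nearest relatives of CA6 and CA4 changed with the alignment. In the alignment of all 10 proteins the secreted CA6 was closest to CA14 at 40.6%, and in pairwise alignments to CA9 at 42.4%. CA4 was closest to the cytosolic CA1 at 34.5% in the first and to the membrane-bound CA12 at 39.9% in the second. The other 8 genes kept their nearest relative in pairwise alignments, and every cytosolic pair stayed above every other pair. CA8, which lacks the first histidine, was closest to CA2 at 42.5% and had 38.6% to 42.5% identity to the cytosolic proteins and 28.7% to 34.2% to the membrane-bound ones. These are descriptions of genes that share an ancestor, and no test was made.

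**Figure D4:**
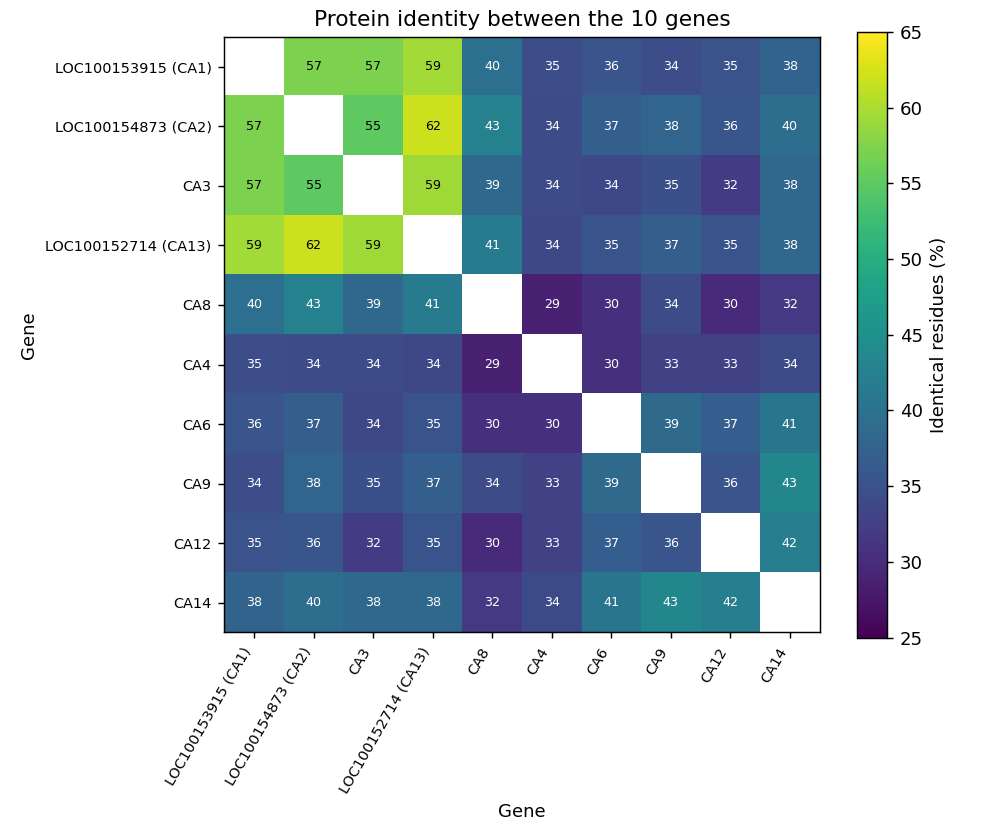
Identical residues (%) for each of the 45 pairs of carbonic anhydrase proteins, over alignment columns where both have a residue. The 4 cytosolic proteins form a block of 55.0% to 61.9%; CA8 has its highest values, up to 42.5%, with that block.

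Hydrophobic stretches were measured as the highest mean Kyte-Doolittle hydropathy over 19 residues, for which 1.6 is a common mark of a membrane-spanning stretch. After the first 40 residues, only the 4 membrane-bound proteins of the 10 exceeded it, with 2.21 in CA4, 2.71 in CA14, 2.93 in CA9 and 2.97 in CA12. Hydropathy was measured in the members alone, so no share over all protein-coding genes is given. In CA4 the stretch was at residues 292 to 310 of 311, at the very end, where proteins with a lipid anchor carry a signal that is later removed. In CA9 it was followed by 28 residues, in CA12 by 33 and in CA14 by 25. A transmembrane protein of this kind has its cytoplasmic tail there. The secreted CA6 reached 0.71 there, the lowest value of the 10.

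In the first 40 residues of the longest protein of each gene, where a signal peptide would lie, the cytosolic proteins and CA8 had values from -0.83 in CA3 to -0.42 in CA2 and in CA8. The 5 proteins known to enter the secretory pathway had 1.02 in CA12, 1.40 in CA6, 1.44 in CA4, 1.68 in CA9 and 1.81 in CA14. These 2 groups did not overlap. They were the same groups of 5 that the introns at column 368 formed.

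**Figure D5:**
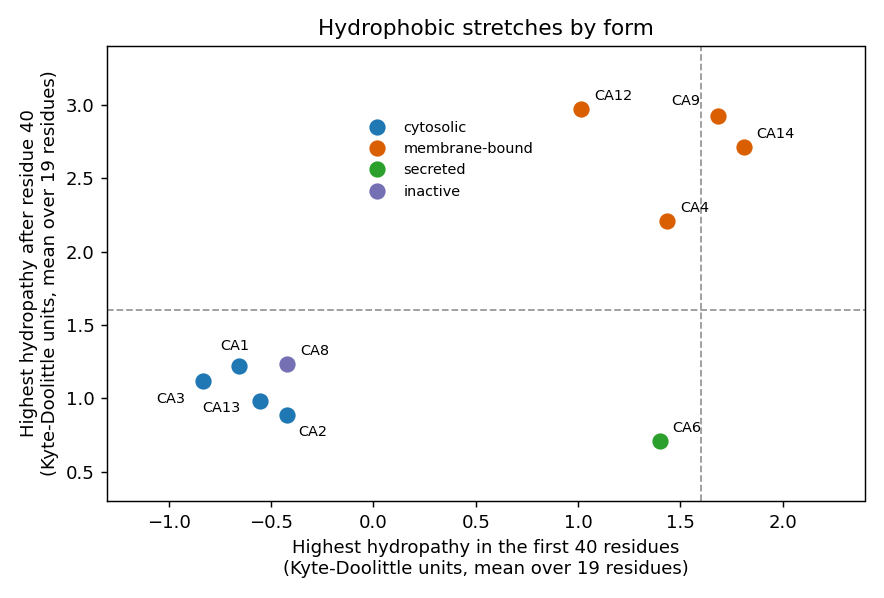
Highest mean hydropathy over 19 residues in the first 40 residues (horizontal axis) and after them (vertical axis), in Kyte-Doolittle units, for the 10 proteins colored by form. Dashed lines mark 1.6; the 4 membrane-bound proteins lie above the horizontal line, CA6 lies low and to the right, and the cytosolic proteins and CA8 lie low and to the left.

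Some annotated transcripts lacked these features. Of the 3 coding CA13 transcripts, 2 encoded 182 residues and kept 1 of the 3 ligand codons. They lacked the exon that holds the first and the second ligand codon and began at a downstream ATG in another reading frame. Their first 38 codons were thus not those of the full-length protein, the other 144 were, and the first 40 residues reached 0.97, near the value of CA12. The remaining transcript encoded 262 residues and kept all 3. Among the CA9 transcripts, which encoded 442 to 477 residues, 1 of 446 residues kept only 2 ligand codons, as it skips the exon that holds the third. All 4 coding CA14 transcripts kept the 3 ligands. The CA14 transcript of 286 residues had no hydrophobic stretch after residue 40 (0.82), while those of 332, 336 and 363 residues kept the value of 2.71. The CA14 transcript of 332 residues reached -0.97 in its first 40 residues against 1.81 in the other 3. As all 7 CA14 transcripts share a 3' end, reads from that end do not separate them.

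The annotation gives, for predicted transcripts, the number of pig RNA-seq samples in which RefSeq found all introns, none of which need be SMGs. CA2 was supported by 142 samples, the full-length CA13 by 146 and CA1 by 25. The CA13 transcripts of 182 residues were supported by 119 and 43 samples. For CA9 the transcript of 442 residues was supported by 27 samples, and the longest, of 477 residues, by 5. The CA12 transcripts were supported by 43 and 40 samples. CA8 was supported by 88 samples for 1 of the transcripts that end at 73140610 and by 27 for the other, with 32 for the one that ends farthest 3'. The median over the 19 predicted coding transcripts of members was 40 samples, and it was 50 over all predicted coding transcripts that give the number. CA3, CA4 and CA6 carry no such text.

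GC content at the third codon position was 81.4% in CA4, 73.5% in CA6 and 69.9% in CA12. It was 44.3% in CA13, 45.2% in CA1, 56.2% in CA2 and 63.1% in CA3. CA8 had 51.9%, CA14 60.3% and CA9 61.0%. The cytosolic genes, although neighbors, spanned a range that overlapped with those of CA8, CA9 and CA14.

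Of 8 other family genes, namely CA5A, CA5B, CA7, CA10, CA11, CA15 and the receptor phosphatases PTPRG and PTPRZ1 with a carbonic anhydrase-like domain, 7 were found by name, and no gene was named CA15. The fewest coding exons, 7, were in CA5A, CA5B and CA7, the number of the cytosolic members. None of these lay in the cluster on chromosome 4. CA5A and CA7 were on chromosome 6 and CA5B was on chromosome X. Their 3' UTRs ranged from 153 bp in CA11 to 4417 bp in PTPRG, with a median of 1185 bp. A poly(A) signal ended 5 of these 7, beside 60.9% of all protein-coding genes and 69.9% of those without a placeholder name. Another 8 genes for transporters and channels that move HCO3-, H+ or Cl- beside carbonic anhydrases (SLC4A4, SLC4A7, SLC4A2, SLC9A8, SLC26A6, SLC12A2, ANO1 and CFTR) were all found by name. Their 3' UTRs ranged from 159 bp in SLC4A2 to 5528 bp in SLC9A8, with a median of 2276.5 bp, against 574.5 bp for the 10 members. A poly(A) signal ended 7 of these 8, beside the same shares of 60.9% and 69.9%.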

How the data were processed

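Libraries for 3' scRNA-seq came from tracheal SMGs of 4 WT and 4 CF pigs. The deposited file is their gene annotation for all 8 libraries, and the deposited values are genome coordinates, counted from 1, on Sscrofa11.1; they are no read counts. The authors edited the NCBI annotation of this build and assigned reads to it with Cell Ranger, version 3.0.2 according to the submitters' notes. No matrix of read counts was analysed here, and the depth of each library is unknown. The members and gene lists were chosen with earlier results of these data known. The genes named are the 10 members, their nearest neighbors, genes that overlap them and, of the gene lists, the lowest and highest values. A gene of the transporter list is not reported here, and the values of that list leave it out.

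The 3' UTR was taken from the coding transcript that ends farthest 3', or the longest 3' UTR where several end there, the 5' UTR from the one that starts farthest 5', and the coding length and exon number from the longest coding sequence, without the stop codon. CA1, CA2 and CA13 were taken by product text, and the forms from general knowledge of the mammalian enzymes. Coding sequences were cut from the Sscrofa11.1 genome of RefSeq and translated; all 10 began with ATG and had no stop inside. Proteins were aligned with mafft 7.526 and, as an alternative, in pairs with BLOSUM62 (gap open 10, extension 0.5). The measures were tested on simulated gene models, and 15 of 15 checks passed. Genes of a family are not replicates, so no test was made. Alternatives changed the transcript, the cluster distance, the poly(A) window and hexamer, the limits for short 3' UTRs and overlaps, the alignment, and the genes found by name alone. Scripts ran in Python 3.11.15 with Biopython 1.88 and pysam 0.24.0, on a genome indexed by samtools 1.23.1, and matplotlib 3.10.9 drew the plots.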

Additional observations from a re-analysis of the deposited data

How the results depend on the processing

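Of 73 values under alternatives, 63 stayed within set limits and 10 moved. Some of the 63 could not move, so their number does not measure stability. The RefSeq models equaled the deposited ones, CA6 had 1 transcript, and selection by name dropped cytosolic genes only. The cluster count stayed at 4 members although 1 cluster became 2 at 100000 bp. The limit was 1 SD over the genes of a form for a median, any change for a form of 1 gene, 1.5 times for a count, and the 95% binomial interval for an identity. For 3' UTRs that SD was wide, as 1 gene was far longer than the rest of its form. Within these limits the membrane-bound 3' UTR median was 284 bp from the longest coding sequence, and 7 genes had a poly(A) signal in the last 30 bp. No share over all protein-coding genes is given for the 30 bp window, so that count has nothing to be set against. The 3' UTR of the inactive form (CA8) was 1235 bp from the longest coding sequence and as the median over its transcripts, against 694 bp. Its 5' UTR was 265 bp under both, against 266 bp. Its exon number was 10 as the largest over transcripts and 8 for coding exons alone, against 9. The count of members with a 3' UTR under 200 bp was 1, and 2 from the longest coding sequence (added after seeing the data), against 0 under 100 bp. Members that share exon bases with a gene of either strand were 2, against 0 on the same strand. With genes found by name alone, a setting chosen after seeing the data, the cytosolic form was CA3 alone, with a 5' UTR of 66 bp against a median of 161 bp. No paired analysis was possible because no animal has values of its own in a gene annotation. The lengths describe gene models and not transcripts measured in SMGs, and the intron positions rest on 1 alignment of 10 proteins. Pairwise alignment changed the nearest relative of CA4 to CA12 (39.9%) and of CA6 to CA9 (42.4%).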

Other observations

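Product text naming a carbonic anhydrase was carried by 17 genes of the annotation, the 10 members among them. Of the other 7, 5 were CA5A, CA5B, CA7, CA10 and CA11. The remaining 2 are named here on the basis of that text. LOC100621626 carried the text of CA5B, the mitochondrial enzyme, beside the gene named CA5B, and TF, the symbol of transferrin, carried the text inhibitor of carbonic anhydrase.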
